A study of Mus musculus with 12 samples.

Results

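Replication-dependent histone genes are described here, chosen by name: every symbol of the deposited count table that starts with Hist1h, Hist2h, Hist3h or Hist4h and is not marked as a pseudogene by -ps. The rule found 9 genes among 55291 symbols. They are 4 H2A genes (Hist1h2an, Hist1h2ao, Hist1h2ap and Hist1h2al), 3 H2B genes (Hist1h2bp, Hist1h2bq and Hist1h2br) and 2 H4 genes (Hist1h4m and Hist1h4n). The same table lists the rest of the family under newer names (H1f1 to H1f6 and symbols such as H2ac4, H2bc3, H3c2 and H4c4), which the rule leaves out. RefSeq synonyms matched 60 such genes, so that the family holds 69 in all: 6 of H1, 20 of H2A, 18 of H2B, 12 of H3 and 13 of H4. The 9 genes are called the Hist1h genes below, and the 60 others are given beside them by histone type, since no H1 or H3 gene is among the 9.

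CD8+ T cells were taken from the spleens and lymph nodes of male mice of the wild type, and their bulk RNA was sequenced in 4 groups of 3 libraries. Naive cells were lysed without culture on day 0. All other cells were stimulated for 2 days with antibodies to CD3 and CD28 and grown 1 more day with interleukin 2, and then spent 24 h in plain media, in a gel of bovine collagen or in a gel of rat tail collagen, both gels at 2 mg/mL, before RNA was taken on day 4. Every day 4 group thus shares the activation, and no sample was taken between activation and the last 24 h. Libraries were made from 150 ng of total RNA after depletion of ribosomal RNA, a design in which RNA without a poly(A) tail can be counted.

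Histones package DNA into nucleosomes. H2A, H2B, H3 and H4 form the core particle, and H1 binds the linker DNA between particles. Most of their genes are clustered, lack introns and are transcribed in S phase, when new DNA needs new histones. Their messages end in a short stem-loop in place of a poly(A) tail, and the stem-loop binding protein Slbp and the U7 particle with Lsm10 and Lsm11 form that end. When replication stops the messages are degraded, which makes them a common readout of DNA synthesis in dividing cells such as activated T cells.

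Totals per library ran from 28483064 to 53138362 counts. Ribosomal RNA genes held 3.96% to 6.41% of counts in 9 libraries and 11.9% in bovine collagen 2, 11.0% in rat tail collagen 1 and 13.2% in rat tail collagen 3. The 5 CD8 T cell markers (Cd8a, Cd8b1, Cd3d, Cd3e and Cd3g) summed to 1817 to 3483 CPM in every library. The 4 myeloid markers summed to 26.3 to 107 CPM in naive libraries and 1.37 to 5.52 CPM in the others. The 3 stromal markers (Col1a1, Col3a1 and Pdgfrb) summed to 4.84 to 6.16 CPM in rat tail collagen against 0.663 to 0.955 CPM in media. In bovine collagen their sum was 1.12 to 1.43 CPM. Most of the rat tail collagen sum was Col1a1, with a mean of 4.29 CPM against 0.311 CPM for media. For Pdgfrb these means were 1.17 and 0.505 CPM, and for Col3a1 0.0056 and 0 CPM. Whether the marker counts came from other cells, and any part of such cells in the histone values, was not tested. The labels do not say whether a replicate number marks the same mouse, so p-values measure the spread between these libraries.

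Of the 9 Hist1h genes, 8 lay within 50705 bases of chromosome 13 (chr13:21786826-21837530, GRCm38, GENCODE M21). They formed 3 divergent pairs of an H2A and an H2B gene on opposite strands, with gaps of 242 bases between Hist1h2an and Hist1h2bp, 267 bases between Hist1h2bq and Hist1h2ao, and 235 bases between Hist1h2ap and Hist1h2br. An H4 gene followed each of the last 2 pairs, 801 bases from Hist1h2ao for Hist1h4m and 829 bases from Hist1h2ap for Hist1h4n. The order Hist1h2bq, Hist1h2ao, Hist1h4m thus appears again in mirror image as Hist1h4n, Hist1h2ap, Hist1h2br, as the map of the 8 genes shows. The ninth, Hist1h2al, lay apart at chr13:51202727-51203065 on the minus strand, and GENCODE calls it a processed pseudogene. Each of the 4 H2A genes overlaps an annotated gene on the opposite strand. The strand setting of the counting is not given in the sources used here, so reads from the overlapping genes cannot be told apart.

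**Figure D1:**
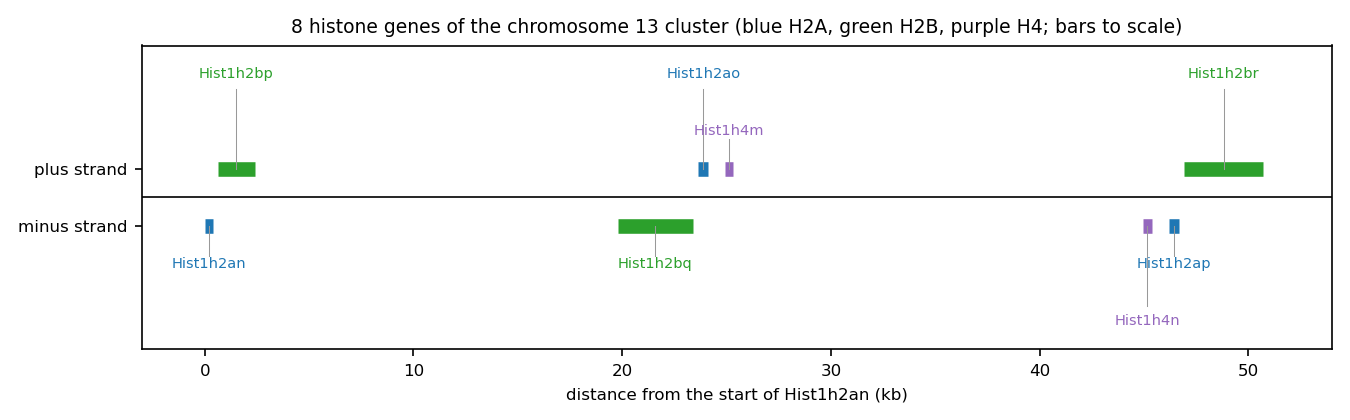
Map of the 8 Hist1h genes of the chromosome 13 cluster, with distance from the start of Hist1h2an in kb on the x axis, the strand on the y axis and bars to scale. The 3 divergent H2A and H2B pairs and the mirrored order of the 2 H4 genes can be seen.

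The stem-loop is shown first because it is the feature that sets these messages apart. It was found in the annotated transcripts of 5 of the 9 Hist1h genes and of 46 of the 69 family genes. It was searched as 16 bases: a stem strand of GG, 3 further bases and T, a loop TNTN (N is any base), and the returning strand. At least 5 of 6 stem bases had to pair. No match says only that the annotated transcript does not hold these letters. The sequences below, from GENCODE M21 on GRCm38, run 5′ to 3′ along the transcript, with the stem-loop in capitals and up to 5 flanking bases on each side.
Hist1h2ao: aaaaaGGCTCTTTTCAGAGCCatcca
Hist1h2ap: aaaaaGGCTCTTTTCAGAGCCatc
Hist1h2bp: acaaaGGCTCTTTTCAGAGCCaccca
Hist1h4m: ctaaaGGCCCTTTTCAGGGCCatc
Hist1h4n: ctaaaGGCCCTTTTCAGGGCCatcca
The H2A and H2B genes shared 1 stem-loop, and both H4 genes had another with a different base pair in the stem. The same split ran through the family. All 34 stem-loops found outside H4 began with GGCTC, while 10 of 12 in H4 genes began with GGCCC and 2 with GGTCC.

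Promoters were taken from RefSeq (GRCm38.p6) as the 250 bases before the annotated start, and were matched for 8 of the 9 Hist1h genes and 62 of the 69 family genes. The promoters of 1 H2B and 1 H4 gene are shown, because the types differ in the motifs they hold. A link of motifs to the size of a change was not tested. Capitals mark, on either strand, the letters CCAAT, the TATA box letters TATAAA, the octamer sequence ATTTGNAT and the H4 promoter element with the letters GGTCCG, which do not overlap each other here.
Hist1h2bp, chr13:21787238-21787487, plus strand: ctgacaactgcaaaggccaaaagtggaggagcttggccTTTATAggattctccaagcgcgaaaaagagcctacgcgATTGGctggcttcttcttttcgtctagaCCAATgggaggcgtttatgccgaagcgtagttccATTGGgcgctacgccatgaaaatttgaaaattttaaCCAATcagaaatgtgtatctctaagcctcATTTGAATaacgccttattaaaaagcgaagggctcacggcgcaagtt
Hist1h4m, chr13:21811496-21811745, plus strand: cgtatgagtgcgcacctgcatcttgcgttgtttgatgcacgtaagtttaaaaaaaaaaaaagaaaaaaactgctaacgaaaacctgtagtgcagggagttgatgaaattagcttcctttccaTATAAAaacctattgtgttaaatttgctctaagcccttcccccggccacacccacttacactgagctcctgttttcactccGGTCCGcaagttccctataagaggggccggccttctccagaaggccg
CCAAT, the letters bound by the factor NF-Y, was in all 6 H2A and H2B promoters of the Hist1h genes and in neither H4 promoter, against 33.8% of 32851 mouse promoters of that length. Over the family it was in every H1, H2A and H2B promoter, in 8 of 10 H3 promoters and in 3 of 12 H4 promoters. The octamer ATTTGNAT, bound by Oct1, was in the same 6 H2A and H2B promoters of the Hist1h genes and in neither H4 promoter, against 3.93% of all promoters. Over the family it was in 12 of 18 H2A and 13 of 16 H2B promoters and in none of the 6 H1, 10 H3 and 12 H4 promoters. GGTCCG was in both H4 promoters, in 9 of the 12 H4 promoters of the family and in 6.72% of all promoters. TATAAA was in 4 of the 8 promoters, Hist1h2an, Hist1h2bp, Hist1h4m and Hist1h4n, against 12.4% of all. The divergent partners share their intergenic DNA, so their 2 promoters are largely 1 sequence read from both ends. A match describes these letters, and binding was not measured.

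The mirrored copies are nearly the same DNA, which limits what a value of 1 copy means. The promoters of Hist1h2bq and Hist1h2br were identical over 250 bases, those of Hist1h4m and Hist1h4n over 249 aligned bases, and those of Hist1h2ao and Hist1h2ap over 150 aligned bases. Within the transcripts, 96.1% of the 75-base windows of Hist1h2bq also occurred in Hist1h2br, 93.1% of those of Hist1h2ao in Hist1h2ap, and 89.0% of those of Hist1h4m in Hist1h4n. Hist1h2an shared 79.0% with H2ac12, a gene under a newer symbol. The share of windows with any copy elsewhere was lower in Hist1h2al (45.7%) and Hist1h2bp (36.9%). How the authors counted reads that fit several copies is not given in the sources used here, so the values of these single copies are uncertain, and the sum of a pair carries less of that uncertainty. Over the 12 libraries the ratio of 1 copy to the other ran from 0.757 to 0.834 for Hist1h2bq over Hist1h2br, from 0.716 to 0.904 for Hist1h2ao over Hist1h2ap and from 0.908 to 1.08 for Hist1h4m over Hist1h4n.

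All 9 Hist1h genes were low in naive cells, highest in media and bovine collagen, and in between in rat tail collagen, and the changes between these levels passed the test in all 9. Levels are counts scaled to library size (CPM) on 1 TMM scale over the 12 libraries, and changes are log2 fold changes from edgeR with adjusted p over all genes tested. The 9 genes summed to 186, 165 and 198 CPM in the naive libraries 1 to 3, to 2699, 1943 and 2006 CPM in media, to 2424, 2051 and 1968 CPM in bovine collagen and to 750, 803 and 740 CPM in rat tail collagen. Media and bovine collagen overlapped, and the other groups lay apart. The mean of the sum in media was 12.1 times that in naive cells, and the mean in rat tail collagen was 2.90 times lower than in media. An exact permutation test over the 4 groups gave p = 5.84e-04 for this sum, also after Benjamini-Hochberg adjustment over the 10 sums tested. For 2 groups of 3 the same exact permutation test, two-sided, cannot go below 0.10, the value it gave for each pair of groups that did not overlap. In bulk RNA, fewer cells in S phase and less histone RNA per cell cannot be told apart.

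**Figure D2:**
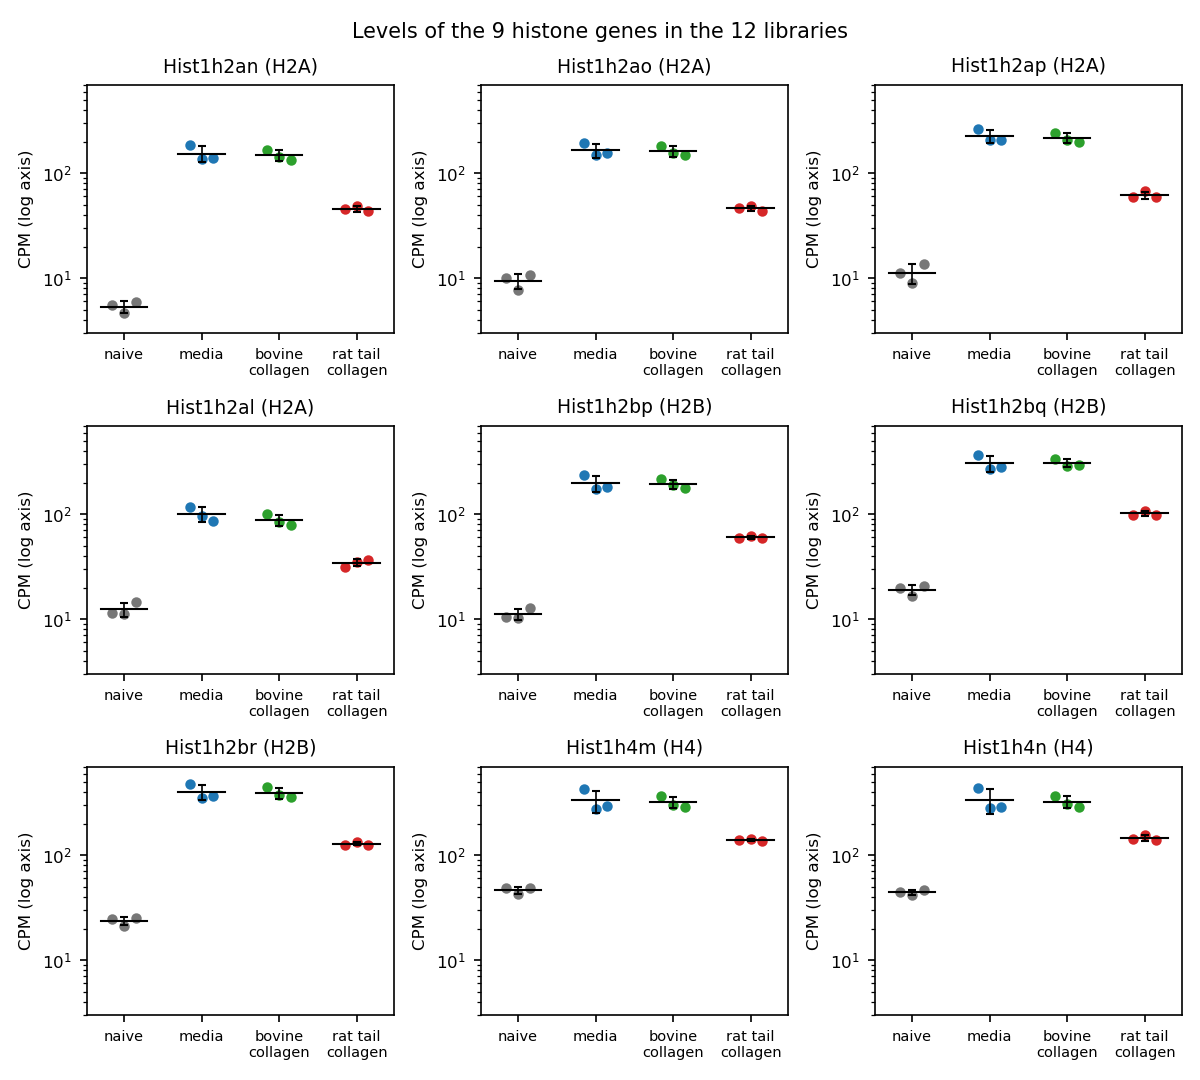
Levels of the 9 Hist1h genes in CPM (log axis) in the 12 libraries, with 1 point per library and bars for the mean and SD of the 3 libraries in a group. In each panel the 3 rat tail collagen libraries lie below the media and bovine collagen libraries and above the naive ones.

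Among the 4 Hist1h genes of H2A, Hist1h2an had the largest rise from naive cells to media. It measured 5.54, 4.62 and 5.88 CPM in the naive libraries, 185, 136 and 140 CPM in media, 166, 143 and 133 CPM in bovine collagen and 45.5, 49.1 and 43.2 CPM in rat tail collagen. The naive libraries were far below the rest, and the rat tail collagen libraries were all below those in media. Hist1h2an rose from naive cells to media (log2 fold change 4.90 ± 0.15 SE, edgeR adjusted p = 1.21e-08) and fell from media to rat tail collagen (-1.75 ± 0.12 SE, edgeR adjusted p = 4.04e-07). Hist1h2ap measured 11.2, 8.90 and 13.5 CPM in naive cells, 263, 206 and 209 CPM in media, 244, 206 and 200 CPM in bovine collagen and 58.9, 67.3 and 58.9 CPM in rat tail collagen. Its change from media to rat tail collagen, -1.88 ± 0.11 SE (edgeR adjusted p = 1.35e-07), was the most negative of the 9, next to -1.84 ± 0.11 SE for its copy Hist1h2ao. Together Hist1h2ao and Hist1h2ap held 456, 354 and 364 CPM in media and 106, 116 and 103 CPM in rat tail collagen.

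Hist1h2al, the annotated pseudogene, followed the other H2A genes with a smaller span. It had 11.6, 11.1 and 14.7 CPM in naive cells, 117, 96.1 and 85.5 CPM in media, 99.6, 84.8 and 78.1 CPM in bovine collagen and 31.6, 34.8 and 36.9 CPM in rat tail collagen. Its rat tail collagen libraries lay between the naive ones and those of media and bovine collagen, as for each of the 8 coding genes. Its log2 fold change was 3.07 ± 0.14 SE from naive cells to media and -1.54 ± 0.12 SE from media to rat tail collagen (edgeR adjusted p = 2.08e-07 and 1.05e-06). Of its 75-base windows, 43.4% also occur in Gm20634, a gene model of the Hist2 locus, so reads of the 2 cannot be fully told apart.

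The 3 H2B genes changed by nearly the same factor. Hist1h2bp, the one with the fewest shared windows, measured 10.6, 10.2 and 12.7 CPM in naive cells, 235, 174 and 183 CPM in media, 215, 189 and 176 CPM in bovine collagen and 59.5, 62.4 and 59.1 CPM in rat tail collagen. The 3 rat tail collagen libraries lay close together for this gene, below every library of media and bovine collagen. Its log2 fold change was 4.21 ± 0.14 SE from naive cells to media and -1.72 ± 0.11 SE from media to rat tail collagen (edgeR adjusted p = 2.14e-08 and 2.56e-07). The pair Hist1h2bq and Hist1h2br summed to 44.4, 37.9 and 45.8 CPM in naive cells, 843, 623 and 652 CPM in media, 782, 663 and 653 CPM in bovine collagen and 225, 241 and 223 CPM in rat tail collagen. From media to rat tail collagen the log2 fold changes of Hist1h2bq and Hist1h2br were -1.59 and -1.65.

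The 2 H4 genes had the smallest falls from media to rat tail collagen of the 9. Hist1h4m measured 48.3, 42.2 and 48.7 CPM in naive cells, 425, 277 and 294 CPM in media, 367, 302 and 291 CPM in bovine collagen and 139, 142 and 136 CPM in rat tail collagen. Media 1 stood above the other media libraries, and the groups of rat tail collagen and media still did not overlap. Hist1h4m rose from naive cells to media by a log2 fold change of 2.90 ± 0.16 SE and fell from media to rat tail collagen by 1.26 ± 0.14 SE on the log2 scale (edgeR adjusted p = 6.29e-07 and 1.74e-05). Hist1h4n gave 2.98 ± 0.17 SE and -1.20 ± 0.15 SE. Per kb of annotated exon, Hist1h4m and Hist1h4n had 826 and 781 CPM per kb in media, against 469 for Hist1h2ap, 391 for Hist1h2an and 280 for Hist1h2bp. Hist1h2bq and Hist1h2br had 151 and 181 CPM per kb in media. On the same scale the naive levels of the 2 H4 genes were 115 and 103 CPM per kb, against 9.47 to 36.7 CPM per kb for the 7 H2A and H2B genes. These values depend on the annotated exon length, which was 2015 and 2212 bases for Hist1h2bq and Hist1h2br. It was 402 and 430 bases for Hist1h4m and Hist1h4n, so levels per kb are not a firm ranking of the genes.

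In rat tail collagen against media, all 9 Hist1h genes fell, where 28.7% of the 19392 genes tested were called lower. Their median log2 fold change was -1.65 (range -1.88 to -1.20), beside -0.01 for all genes tested, and the largest adjusted p of the 9 was 4.3e-05 by edgeR. The 3 libraries of each group did not overlap for any of the 9, as for 31.3% of all genes on that side. Leaving out the 3 libraries of highest ribosomal RNA share kept only rat tail collagen 2 of its group, the highest rat tail library for 8 of the 9 genes. The log2 fold changes then ran from -1.76 to -1.10. With 1 library in a group, no call is read from that fit.

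Of the 58 genes under newer symbols that could be tested, 55 fell, 1 rose and 2 did not pass, where 29.7% of all genes rose. The remaining 2, H2ac18 and H3c14, had too few counts to be tested, and both are overlapped on their own strand by the gene model Gm20634. Among the genes tested, the share of transcript windows with a copy elsewhere ran from 0% (H1f5) to 100% (H2ac19). It was 93.5% in H3c10 and 90.0% in H2ac12. How reads of such windows were counted is not known, so here and below the genes called are not all separate measurements. The lowest log2 fold changes were -2.05 ± 0.12 SE for H2bc3 and -2.04 ± 0.10 SE for H2ac10. The genes that did not pass were the linker histone gene H1f4 (-0.23 ± 0.11 SE, edgeR adjusted p = 0.086) and H2aw of the Hist3 locus (-0.32 ± 0.20 SE, edgeR adjusted p = 0.187), which passed only when media 1 was left out (-0.49, edgeR adjusted p = 0.0361). H2bu2, also of the Hist3 locus, fell from a mean of 30.8 CPM in media to 8.65 CPM in rat tail collagen. H4f16 of the Hist4 locus fell from 116 to 50.5 CPM. The testis genes H2bc1 and H2ac1 fell from 37.4 to 11.4 CPM and from 3.94 to 1.25 CPM. H1f6, which encodes the testis linker histone, rose at the edge of the threshold (0.74 ± 0.28 SE, edgeR adjusted p = 0.0414) from at most 0.688 CPM in media to at most 0.958 CPM in rat tail collagen. That call was lost with DESeq2 (adjusted p = 0.0796), with 1 fit of all 12 libraries and with no filter beyond 1 count. It was also lost when any of 5 libraries was left out, media 2, media 3, bovine collagen 2, rat tail collagen 1 and rat tail collagen 2. There the edgeR adjusted p ran from 0.0568 (0.73) to 0.144 (0.55, without media 3). H2bc21 of the Hist2 locus had the smallest fall among H2B genes (-0.66 ± 0.15 SE, edgeR adjusted p = 0.00267). Its change was -0.49 in the fit with rat tail collagen 2 as the only rat tail library.

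Bovine collagen against media gave no call among the 9 Hist1h genes by edgeR or DESeq2, with none at an unadjusted p under 0.05, and edgeR called 0% of all genes lower and 0.0206% higher. Their log2 fold changes ran from -0.19 to 0.01 with standard errors of 0.11 to 0.15, and the groups overlapped for all 9, where 4.12% of all genes lay wholly below and 4.66% wholly above. None of the 58 other genes was called by either tool, and 2 of the 67 family genes tested had an unadjusted p under 0.05. The sum of the 9 genes in media was 1.03 times that in bovine collagen. A p above the threshold does not show that the 2 groups are alike. The standard errors give the precision of each change, and a difference larger than its standard error could still have been missed. On simulated data this comparison recovered 66.7% of 2-fold and 85.3% of 4-fold changes over all kinds of genes.

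Rat tail against bovine collagen, which shares its rat tail libraries with the first comparison, gave 9 of 9 genes lower, where 26.4% of all genes were lower. The background moved with the scaling, from 5118 genes lower and 5499 higher to 3221 and 6329 with library totals only and to 7682 and 3983 with offsets for GC content and length, while the 9 genes stayed lower in each. The median was -1.62 and the range -1.82 to -1.14. The groups did not overlap for any of the 9, as for 31% of all genes on that side. Among the newer symbols 55 of 58 fell and 1, H1f6, rose (28.4% of all genes rose).

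In media against naive cells all 9 Hist1h genes rose, where 31.6% of 18610 genes tested rose, with a median log2 fold change of 4.15 (range 2.90 to 4.90) beside a median close to 0 for all genes. The groups did not overlap for any of the 9, as for 32.1% of all genes on that side. Among the newer symbols 56 of 58 rose and 1 fell, where 29.2% of all genes fell. H2aw was the one that fell, from 9.82, 11.7 and 8.68 CPM in naive cells to 2.16, 3.09 and 3.16 CPM in media (-1.78 ± 0.19 SE, edgeR adjusted p = 4.42e-05). H2bc21 stood at 8.61, 11.6 and 9.81 CPM in naive cells and 9.53 ± 0.563 CPM (SD, n = 3) in media, and its change of -0.01 ± 0.13 SE did not pass. A part of the H2aw transcript, 30.6% of its windows, is shared with Trim17, which limits its value.

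Rat tail collagen against naive cells again gave 9 of 9 genes higher, where 36.5% of 19449 genes were higher. The median was 2.42 and the range 1.47 to 3.11. With offsets for GC content and length the median was 1.87, the lowest value 0.71 (Hist1h2al) and the highest 2.43 (Hist1h2bp), and all 9 still passed. The groups did not overlap for any of the 9, as for 38.4% of all genes on that side. Hist1h2an stood highest at 3.11 and Hist1h2al lowest at 1.47. Of the newer symbols 56 were higher and 2 lower, H2aw (-2.15) and H2bc21 (-0.72), where 35.4% of all genes were lower. The change of H2bc21 was -0.51 in the fit with rat tail collagen 2 as the only rat tail library.

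**Figure D3:**
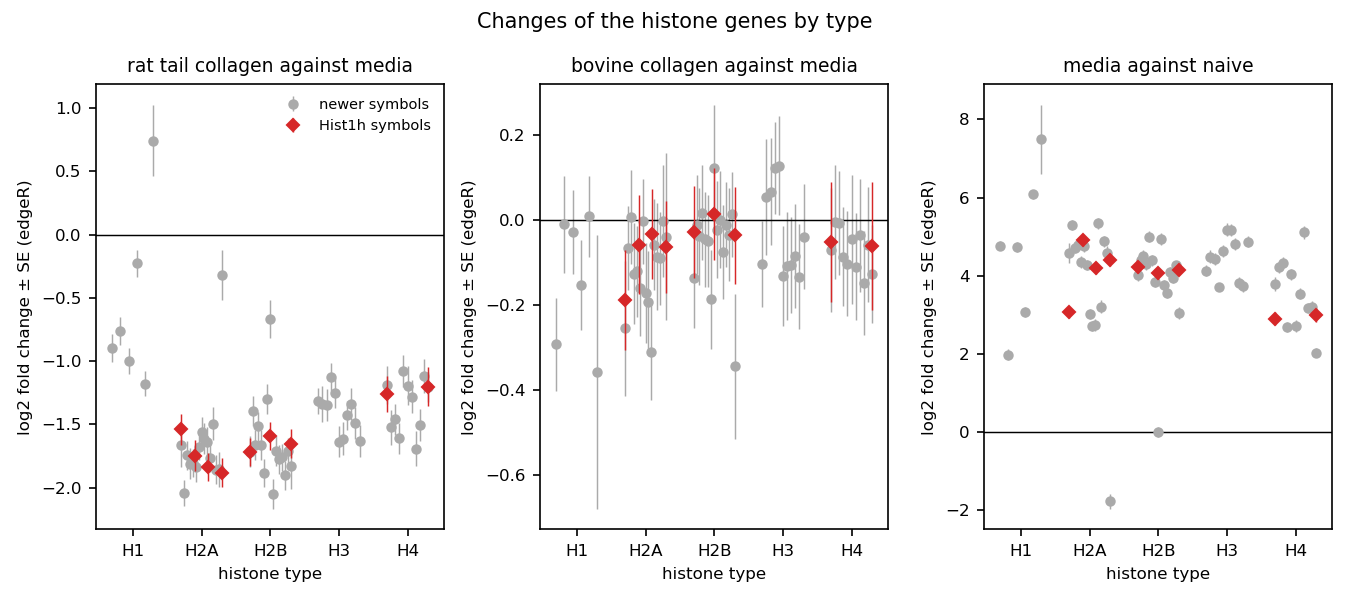
Log2 fold change with standard error (edgeR, y axis) of the 67 histone genes tested, by histone type (x axis), in 3 comparisons, with the 9 Hist1h genes as red diamonds and genes under newer symbols as grey points. The diamonds lie between -1.88 and -1.20 on the left, between -0.19 and 0.01 in the middle and between 2.90 and 4.90 on the right.

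The types of histone had different median changes. The summed level of the family was 1773 ± 152 CPM in naive cells, 21862 ± 3675 CPM in media, 20951 ± 2145 CPM in bovine collagen and 8518 ± 487 CPM in rat tail collagen (SD, n = 3). As a share of all counts this was 0.177%, 2.21%, 1.99% and 0.892%. Median log2 fold changes in rat tail collagen against media were -1.75 for H2A, -1.71 for H2B, -1.35 for H3, -1.26 for H4 and -0.83 for H1. The Hist1h genes, which are part of these medians, had -1.79 for H2A, -1.65 for H2B and -1.23 for H4, the last from 2 near copies. From naive cells to media the median log2 fold changes were 4.75 for H1, 4.49 for H3, 4.40 for H2A, 4.13 for H2B and 3.20 for H4. The sums, which the most abundant genes set, stood in another order: the sum of H3 genes rose 19.4-fold, H2B 16.8-fold, H2A 14.8-fold, H4 10.4-fold and H1 8.19-fold. Differences between the types were not tested, and the exact permutation tests over the 4 groups gave an adjusted p of 5.84e-04 for the sum of every type. Many genes within H2A, H2B, H3 and H4 share transcript windows, so their medians are not taken over fully separate measurements.

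The make-up of the histone RNA by type also varied over the groups. H1 held 28.0% to 30.2% of the family sum in naive cells, 18.3% to 20.6% in media, 19.1% to 19.3% in bovine collagen and 28.6% to 29.0% in rat tail collagen. The rat tail collagen libraries thus lay in the naive range for H1 and above every library of media and bovine collagen. H2B held 18.0% to 18.6% in naive cells, 24.6% to 25.2% in media, 25.1% to 25.6% in bovine collagen and 19.0% to 19.5% in rat tail collagen. For H3 the rat tail collagen share, 13.2% to 13.8%, was close to media, 13.8% to 14.4%, and apart from naive cells, 8.94% to 9.18%. For H4 the rat tail collagen share, 25.7% to 26.1%, lay within that of media, 24.5% to 26.7%, and below naive cells, 29.4% to 31.5%. For H2A it was 12.3% to 12.5%, below naive cells, 13.2% to 13.9%, and media, 15.9% to 16.5%. The make-up in rat tail collagen was thus near naive cells for some types only. The 9 Hist1h genes held 10.3% ± 0.332 of the family counts in naive cells, 10.1% ± 0.200 in media, 10.2% ± 0.113 in bovine collagen and 8.98% ± 0.121 in rat tail collagen (SD, n = 3).

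**Figure D4:**
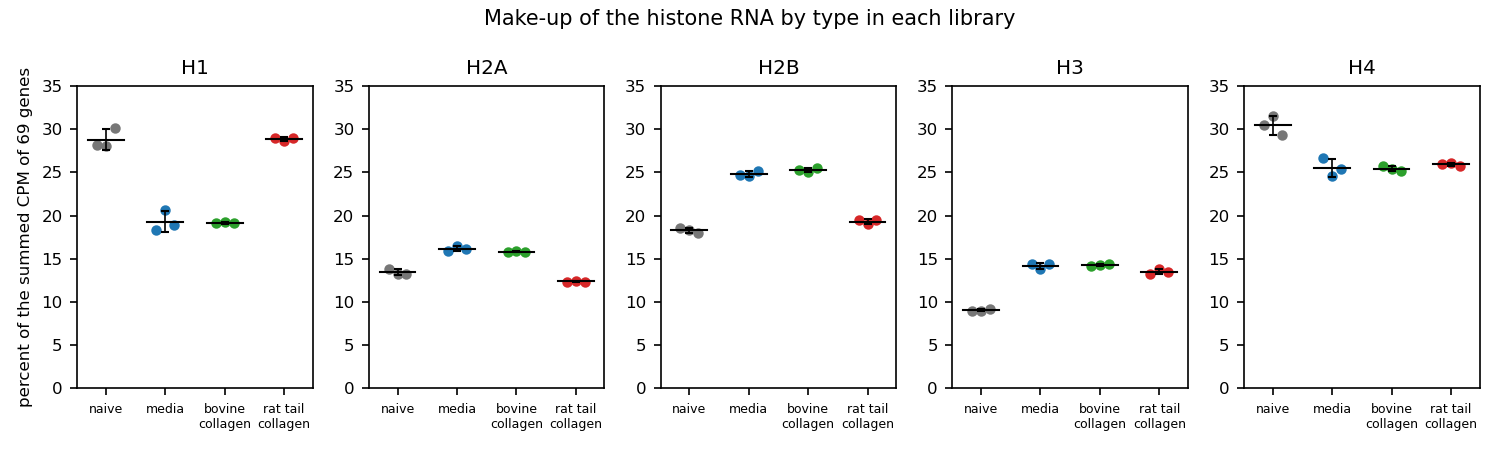
Share of the summed CPM of the 69 family genes held by each histone type, in percent (y axis), with 1 point per library and bars for the mean and SD of each group of 3. H1 stands at 28.6% to 29.0% in rat tail collagen and at 18.3% to 20.6% in media.

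Among the linker histone genes, H1f5 had 10.5, 9.92 and 9.45 CPM in naive cells, 717, 634 and 596 CPM in media and 280, 312 and 273 CPM in rat tail collagen, and fell from media to rat tail collagen by 1.18 ± 0.10 SE on the log2 scale (edgeR adjusted p = 1.54e-06). H1f3 fell from 1181, 1042 and 943 CPM in media to 526, 561 and 506 CPM in rat tail collagen, H1f1 fell by 0.89 ± 0.11 SE and H1f2 by 0.76 ± 0.11 SE. H1f4 measured 792, 679 and 648 CPM in media and 581, 619 and 619 CPM in rat tail collagen, groups that did not overlap although its test did not pass. H1f4 passed with offsets for GC content and length (-0.48, edgeR adjusted p = 6.51e-04), with no filter beyond 1 count (-0.28, edgeR adjusted p = 0.0102), and narrowly without bovine collagen 1 (-0.24, edgeR adjusted p = 0.0499) or bovine collagen 3 (-0.23, edgeR adjusted p = 0.0457). H1f2 stood at 335, 318 and 414 CPM in naive cells, the somatic H1 gene with the smallest rise on activation (1.97 ± 0.14 SE).

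H1f0, a linker histone gene that is not tied to replication and whose message is polyadenylated, moved the other way. It had 4.88, 5.12 and 5.47 CPM in naive cells, 61.1, 41.1 and 30.8 CPM in media, 52.3, 42.6 and 29.9 CPM in bovine collagen and 248, 208 and 203 CPM in rat tail collagen. Every rat tail collagen library was above every other library. H1f0 rose from media to rat tail collagen (2.30 ± 0.26 SE, edgeR adjusted p = 3.82e-05). Among H1f0 to H1f5 it held 7.42% to 9.38% of the CPM in rat tail collagen, against 0.807% to 1.26% in media and 0.927% to 1.10% in naive cells.

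**Figure D5:**
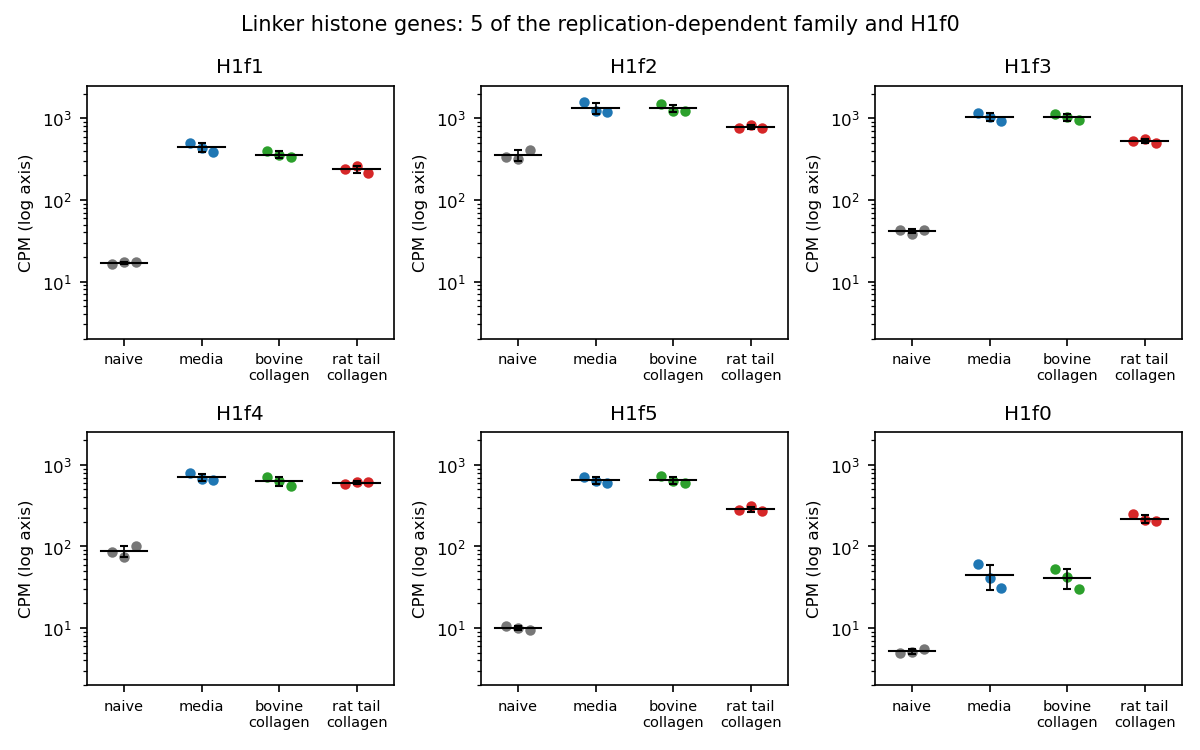
Levels in CPM (log axis) of 5 linker histone genes of the family and of H1f0 in the 12 libraries, with 1 point per library and bars for the mean and SD of each group of 3. H1f5 falls from 596 to 717 CPM in media to 273 to 312 CPM in rat tail collagen, while H1f0 stands at 203 to 248 CPM in rat tail collagen against 30.8 to 61.1 CPM in media.

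Other variant genes were described from a list of 13 set up as replication-independent, a label that was not tested for any of them. In rat tail collagen against media 4 rose and 8 fell, with a median of -0.80, beside 29.7% of all genes tested higher and 28.7% lower. H1f10, another replication-independent linker histone, rose by 1.89 ± 0.21 SE. H1f8, the oocyte linker histone, had 0, 0.0461 and 0.0428 CPM in media and 1.32, 1.06 and 0.428 CPM in rat tail collagen. H2ax, which marks DNA breaks when phosphorylated, fell by 1.25 ± 0.11 SE on the log2 scale and the centromere histone gene Cenpa by 1.24 ± 0.10 SE. With offsets for GC content and length the change of H1f10 was 1.09 and that of H2ax -1.84, and both still passed. H3f3a and H3f3b encode the same replacement histone, and their changes were -1.05 ± 0.08 SE and -0.21 ± 0.08 SE. The call of H3f3b (edgeR adjusted p = 0.0297) was lost when any of 5 libraries was left out, media 1, media 2 or a rat tail collagen library, with values of -0.23 to -0.17 and edgeR adjusted p of 0.0526 to 0.0858. It was also lost with library totals only (-0.16, edgeR adjusted p = 0.256) and with 1 CPM in 3 libraries (-0.16, edgeR adjusted p = 0.0786).

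Lists of genes that make and remove histone messages had medians nearer to 0. Of 24 genes for transcription and 3′ end formation, 14 fell and 3 rose in rat tail collagen against media, with a median of -0.24, where 28.7% of all genes fell and 29.7% rose. Slbp fell from 133, 132 and 142 CPM in media to 90.1, 98.7 and 99.5 CPM in rat tail collagen (-0.51 ± 0.07 SE, edgeR adjusted p = 8.1e-05). Lsm11 fell (-0.56 ± 0.11 SE) and Lsm10 did not pass (0.15 ± 0.13 SE, edgeR adjusted p = 0.337). Npat, the coactivator of histone transcription in S phase, did not pass at -0.15 ± 0.07 SE (edgeR adjusted p = 0.112), with 73.1, 74.7 and 81.1 CPM in media and 69.2, 71.5 and 67.6 CPM in rat tail collagen. Cpsf3, the nuclease that cuts the end, fell by 0.74 ± 0.08 SE, Snrpe by 1.08 ± 0.10 SE and Cpsf4 by 0.44 ± 0.07 SE. Npat passed with the offsets for GC content and length (-0.28, edgeR adjusted p = 0.00266).

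Of 15 genes for decay of histone messages, 9 fell and 2 rose in the same comparison (28.7% and 29.7% of all genes), with a median of -0.49. Eri1, the exonuclease that trims the stem-loop, fell by 0.54 ± 0.07 SE and Lsm6, of the ring that binds the oligouridylated end, by 1.08 ± 0.07 SE. Exosc10 fell by 0.77 ± 0.07 SE and Lsm4 by 0.78 ± 0.11 SE. Upf1, a helicase that takes part in this decay, was among those that rose (0.60).

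Of 24 genes for histone chaperones and import, 13 fell and 4 rose, against the same 28.7% and 29.7% of all genes, with a median of -0.23. Hjurp, the chaperone of Cenpa, fell by 1.10 ± 0.10 SE, Hat1, which acetylates new H4, by 0.77 ± 0.07 SE and Nap1l1 by 0.53 ± 0.07 SE. Anp32e, which removes H2A.Z, rose by 0.61 ± 0.07 SE. In bovine collagen against media none of the 104 genes tested of these lists and the S phase list below was called by edgeR, and 3 had an unadjusted p under 0.05.

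Genes of S phase fell beside the histone genes. Of 28 S phase genes 22 fell and 6 did not pass in rat tail collagen against media, with a median of -0.60, where 28.7% of all genes fell. Rrm2, a subunit of ribonucleotide reductase, fell by 1.43 ± 0.09 SE on the log2 scale, Ccna2 by 1.59 ± 0.10 SE and Tyms by 1.11 ± 0.07 SE. All 28 rose from naive cells to media, where 31.6% of all genes rose, with a median of 3.01. The sum of the 9 Hist1h genes divided by that of the 28 S phase genes was 0.200 to 0.237 in naive cells, 0.415 to 0.544 in media, 0.419 to 0.491 in bovine collagen and 0.241 to 0.268 in rat tail collagen. The ratio in rat tail collagen lay below every library of media and bovine collagen and just above the naive ones. The same ratio for the family was 2.68 to 2.95 in rat tail collagen, 4.15 to 5.26 in media and 1.99 to 2.31 in naive cells. For the family, rat tail collagen thus lay further above naive cells than for the 9 genes. The lists share their libraries with the histone genes, and the part of a change in cycling cells was not tested.

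Single libraries moved together over the 9 genes. Media 1 was the highest media library and bovine collagen 1 the highest bovine collagen library for all 9, and naive 3 the highest naive library for all 9. Media 1 was also the deepest library. Its sum was 2699 CPM against 1943 and 2006 CPM in the others, so that the log2 ratio of the sum in rat tail collagen against media ran from -1.62 to -1.37 as each library was left out.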

How the data were processed

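Total RNA of 12 libraries was sequenced. Whole-number read counts per gene symbol, with a column per library, are what the authors deposited, and columns were joined to groups by the sample labels. HISAT2, featureCounts and Picard, among others, and GRCm38 (mm10) are listed in the submitters' processing notes. Their versions, the annotation release, the strand setting and the treatment of reads that fit several places: not given in the sources used here. Ribosomal RNA depletion and 150 ng input are per the labels' protocols.

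Counts were analysed with edgeR 4.0.16 in R 4.3.3: filterByExpr, TMM factors and the robust quasi-likelihood F test, with Benjamini-Hochberg adjustment over all genes tested and a call at an adjusted p under 0.05. The 9 day 4 libraries shared 1 fit, and each comparison with naive cells used 6 libraries. DESeq2 1.42.0 was an alternative, beside RLE factors, library totals, no filter, 1 CPM in 3 libraries, 1 fit of all 12 libraries, the replicate number as a block, removal of 354 rRNA genes, offsets for GC content and length, and leaving out each library. Leaving out the 3 libraries of highest rRNA share and the counts over the whole family were added later. The former left 1 rat tail collagen library. Summed levels were compared by exact permutation tests. The pipeline was tested on simulated data with 200 changed genes per comparison, far fewer than were called in most of the real comparisons. In rat tail collagen against media (19392 genes) it recovered 91.0% of 4-fold and 67.0% of 2-fold changes. Over all comparisons recovery ran from 85.3% to 92.7% for 4-fold and from 64.9% to 72.5% for 2-fold changes. The false share of calls ran from 4.82% in rat tail collagen against media to 9.58% in bovine collagen against media. The members and lists were chosen with earlier results of these data known. Genes to name were the 9, the 3 highest and the extremes of each type, linker and testis histones, and the Hist3 and Hist4 loci. Added to these were genes called against their type, and up to 4 genes per list with the smallest adjusted p plus fixed ones. Values of some of these genes are not given here. The other genes a sentence names were chosen after their values were seen. Gene positions and transcripts are GENCODE M21 (GRCm38). Stem-loops, shared windows and promoter motifs were found by exact text search. Library totals of 28483064 to 53138362 counts limit mainly the low genes.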

Additional observations from a re-analysis of the deposited data

How the results depend on the processing

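The 9 Hist1h genes gave the same calls under every alternative run: 9 lower in rat tail collagen against media and against bovine collagen, 9 higher in media and in rat tail collagen against naive cells, and 0 in bovine collagen against media, also with the replicate block (9, 9, 9, 9 and 0). In 792 refits of single genes, none changed its side of the threshold or its direction. Same-numbered libraries were not treated as pairs in the main fits. Their deviations from group means, over the genes kept by the filter, correlated at 0.04 to 0.12 in rat tail collagen against media. In bovine collagen against media the values were 0.38, 0.03 and 0.45 for replicates 1 to 3. They ran from -0.02 to 0.10 in rat tail against bovine collagen and from -0.03 to 0.09 in media against naive cells. In rat tail collagen against naive cells they ran from 0.05 to 0.15. In each comparison at least 1 was under 0.1. Whether media and bovine collagen libraries of 1 number share a source was not tested. Over all genes, offsets for GC content and length moved the split of lower and higher calls from 5560 and 5759 to 7931 and 4276 in the first of these comparisons and from 6889 and 7099 to 9027 and 5752 in the last, with the median of all genes at -0.20 and -0.25. The log2 ratio of the summed 9 genes ran from -1.62 to -1.37 in rat tail collagen against media, -0.14 to 0.12 in bovine collagen against media, -1.55 to -1.39 in rat tail against bovine collagen, 3.43 to 3.68 in media against naive cells and 1.99 to 2.12 in rat tail collagen against naive cells as each library was left out. The 1 family gene called higher in rat tail collagen against media (H1f6) became 0 with no filter beyond 1 count and with 1 CPM in 3 libraries (where it is not tested). It also became 0 with DESeq2 and with 1 fit of all 12 libraries, and ranged from 0 to 1 as each library was left out. Against bovine collagen it became 0 with 1 CPM in 3 libraries. The fit without the 3 libraries of highest rRNA share is among the runs above but left only rat tail collagen 2 in its group. A call kept or lost there cannot decide on a part of the ribosomal RNA share. Cpsf4, which did not pass in rat tail collagen against naive cells, was lower with GC and length offsets (-0.37). Causes were not tested. Single copies with shared sequence cannot be told apart, and no group was sampled at the start of the last 24 h.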
